A study of Mus musculus with 6 samples.

Results

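Colony-stimulating factor receptors and macrophage identity markers were examined in bone marrow-derived macrophages (BMDMs) from mice with and without deletion of PKM2 in myeloid cells. The 10 genes were chosen by symbol from the 23935 symbols of the deposited tables, by a rule that uses none of their measured values. They are Csf1r and its ligand gene Csf1, the GM-CSF receptor genes Csf2ra and Csf2rb, and the IL-3 receptor beta chain gene Csf2rb2. The others are the macrophage genes Adgre1, Adgre4, Mpeg1 and Cd68, and the leukocyte gene Ptprc. All 10 were found, and all 10 passed the filter on low counts as did 16516 genes in total. The study asked whether loss of PKM2, a pyruvate kinase of glycolysis, alters the state of pro-inflammatory macrophages. For these genes the question is whether PKM2ΔMAC cultures carry the same macrophage markers and growth factor receptors as their controls.

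BMDMs are obtained by growing bone marrow cells in medium that contains M-CSF. The PKM2ΔMAC mice carried the floxed Pkm allele and LysM-Cre, a Cre recombinase expressed from the Lyz2 locus in myeloid cells, neutrophils included, and the PKM2FL/FL littermates carried the floxed allele without Cre. Cultures of both genotypes were kept in M-CSF for 7 days and were then primed over 16 h with LPS at 10 ng/mL plus IFN-γ at 25 ng/mL, so no unstimulated cultures enter the comparison. There were 3 libraries per genotype, numbered 1 to 3 by the labels. They are taken as 1 library per mouse from that numbering, and their age is not given in the sources used here. The study's methods name male donors for BMDMs in flow cytometry and do not state the sex for the sequenced cultures. Since Cre was present in PKM2ΔMAC only, loss of PKM2 and presence of Cre in the Lyz2 locus cannot be told apart.

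M-CSF, the product of Csf1, binds the receptor tyrosine kinase encoded by Csf1r and keeps macrophages alive and dividing. GM-CSF binds a receptor made of a specific alpha chain, encoded by Csf2ra, and a beta chain encoded by Csf2rb, which mouse IL-3 and IL-5 receptors share. The mouse also has Csf2rb2, a second beta chain gene whose product serves the IL-3 receptor. Adgre1 encodes F4/80, the surface glycoprotein used to define mouse macrophages, and Adgre4 a related adhesion receptor. Mpeg1 encodes perforin-2, a pore-forming protein of phagocytes, Cd68 a heavily glycosylated protein of late endosomes and lysosomes, and Ptprc the phosphatase CD45 that marks all nucleated blood cells.

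Total counts were between 49957449 and 54524651 per library, and 3 counts, the limit that a count of 0 allows, corresponded to at most 0.0604 CPM. CPM are counts scaled to a common library size, with TMM factors that correct for composition. Pkm, the targeted gene, averaged 1706 ± 8.08 CPM in controls and 1068 ± 125 CPM in PKM2ΔMAC (SD, n = 3 each). Its symbol counts all isoforms together. Lyz2, into which Cre is placed, fell from 17825 to 28.4 CPM on average (log2 fold change -9.29, adjusted p = 8.53e-09, edgeR). PKM2ΔMAC replicate 2 lay apart on the second principal component, at -26.3 against values from -5.07 to 17.8 in the other libraries. For each of the 10 genes whose direction turned without it, both values are given.

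Markers of other cells were summed to see what else the cultures held. Neutrophil markers summed to between 20.3 and 49.5 CPM in PKM2FL/FL and between 90.2 and 170.2 CPM in PKM2ΔMAC, with 8 of 8 tested markers higher and 5 of 8 not overlapping, where 17.2% of all tested genes did not overlap. Retnlg, found but too low to be tested, had 2, 6 and 35 counts in the controls and 4, 8 and 12 in the knockout. Of these 8, 0 were called by edgeR with 5 at an unadjusted p under 0.05, where 9.83% of all genes were. Of the 9 found, DESeq2 called 4 (Ltf, Ngp, S100a8 and S100a9), where it called 1.54% of all genes. On TPM values, limma-trend called 0 of the 9, where it called 0.281% of all genes. Stromal markers, led by collagen genes, summed to between 5000.3 and 5590.1 CPM in PKM2FL/FL and between 5004 and 6313 CPM in PKM2ΔMAC. One of them, Pdgfrb, was apart and higher in PKM2ΔMAC (log2 fold change 0.22, SE 0.039, adjusted p = 0.0719, edgeR), with 127, 133 and 129.5 CPM in controls and 148, 155 and 150.3 CPM in the knockout. Of the 5 stromal markers, edgeR called 0, with 1 at an unadjusted p under 0.05, DESeq2 called 1, Pdgfrb, and limma-trend called 0. Without PKM2ΔMAC replicate 2, edgeR called it too (0.20, adjusted p = 0.0234). B cell markers summed to between 39.6 and 55.7 CPM over the 6 libraries, of which Ebf1, which stromal precursors also express, gave most (44.3 CPM on average in PKM2FL/FL). Of the 4 tested B cell markers, 4 were higher in PKM2ΔMAC and 0 were called by edgeR. The genotypes did not overlap for 1 of them, Cd79b (log2 fold change 0.55, SE 0.22, adjusted p = 0.466, edgeR). Monocyte markers overlapped between the genotypes, with sums from 209 to 284 CPM and from 214 to 284 CPM. T and NK cell markers stayed below 1 CPM in sum in each library, dendritic cell markers at no more than 4.79 CPM, mast cell and basophil markers at no more than 7.76 CPM, and erythroid markers at no more than 3.89 CPM. Of the 3 tested erythroid markers, 3 were higher in PKM2ΔMAC and 0 were called by edgeR. For 1 of them, Hba-a1, the genotypes did not overlap (log2 fold change 1.02, SE 0.36, adjusted p = 0.401, edgeR). Fcer1a, of mast cells and basophils, had 2 counts in each PKM2FL/FL library and 0 in each PKM2ΔMAC library, all under that limit of 3 counts. Of the 3 tested markers of that list, 1 was lower and 2 were higher in PKM2ΔMAC. Cpa3 was lower, with 34, 36 and 41 against 20, 12 and 9 counts (log2 fold change -1.45, SE 0.38, adjusted p = 0.233, edgeR). Gata2 (0.53, SE 0.25) and Mcpt8 (0.12, SE 0.72) were higher, with overlap. The part of these cells in the results was not tested. In bulk RNA, fewer cells of a type and less RNA per cell cannot be told apart.

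Markers of macrophages were among the most abundant transcripts in both genotypes. Levels between genes were compared in TPM, which are scaled for transcript length. Mpeg1 was first at 3628 ± 173 TPM (SD over 6 libraries), and each of its libraries lay above those of Cd68, which came next at 2610.2 ± 249 TPM. Adgre1 at 2063 ± 321 TPM and Csf1r at 2038 ± 237 TPM followed. Pooled over the genotypes they did not differ beyond their spread, with Adgre1 above Csf1r in 3 of 6 libraries. Their order turned with genotype. In PKM2FL/FL replicates 1, 2 and 3, Csf1r was higher (1898, 2111 and 1967 against 1792, 1891 and 1794 TPM). In PKM2ΔMAC replicates 1, 2 and 3, Adgre1 was higher (2173, 2635 and 2095 against 1946, 2482 and 1825 TPM). Cd68 and Adgre1 also overlapped in range, with Cd68 higher in 5 of 6 libraries. These 4 genes stood at a percentile of at least 99.82 of mean TPM over all symbols.

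The growth factor and leukocyte genes formed a lower tier. Csf2ra was at 384 ± 20.0 TPM, apart from Csf1 at 236 ± 45.3 TPM, and Csf1 apart from Csf2rb2 at 178 ± 29.5 TPM. Csf2rb2 lay above Csf2rb, at 130.02 ± 6.62 TPM, in 6 of 6 libraries although their ranges overlapped, and Csf2rb overlapped with Ptprc at 124 ± 6.32 TPM. Adgre4 was far below the rest at 2.16 ± 0.947 TPM, on 68 to 174 counts per library.

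**Figure D1:**
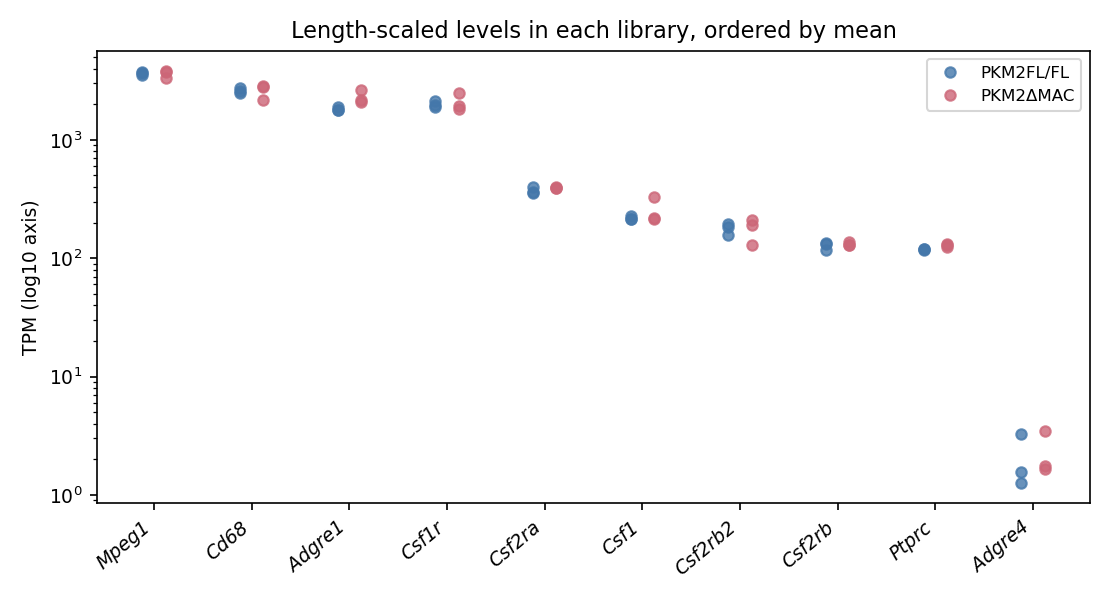
TPM (log10 axis) of each gene in each library, ordered by the mean over 6 libraries, with PKM2FL/FL in blue and PKM2ΔMAC in red. Mpeg1, Cd68, Adgre1 and Csf1r lie between 1792 and 3796 TPM, and Adgre4 lies below 4 TPM.

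Between the genotypes, no gene of the 10 passed the test over all genes, and Adgre1, higher in PKM2ΔMAC, had the lowest p-value. By the quasi-likelihood test of edgeR, with p-values adjusted over all genes (Benjamini-Hochberg), 0 of the 10 had an adjusted p under 0.05, where 0.412% of the 16516 tested genes did. At an unadjusted p under 0.05 there was 1, Adgre1, where 9.83% of all genes passed. DESeq2 called 1 of the 10, again Adgre1, where it called 1.54% of the 18825 genes to which it gave an adjusted p, and limma-trend on TPM called 0 of the 10 and 0.281% of 14582 genes. The log2 fold changes of PKM2ΔMAC over PKM2FL/FL were positive for 5 genes and negative for 5, with a median of 0.0054 against -0.00021 over all tested genes. The genotypes did not overlap for 2 of the 10, Adgre1 and Ptprc, both higher in PKM2ΔMAC, where 17.2% of all genes did not overlap and 8.92% were apart and higher.

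**Figure D2:**
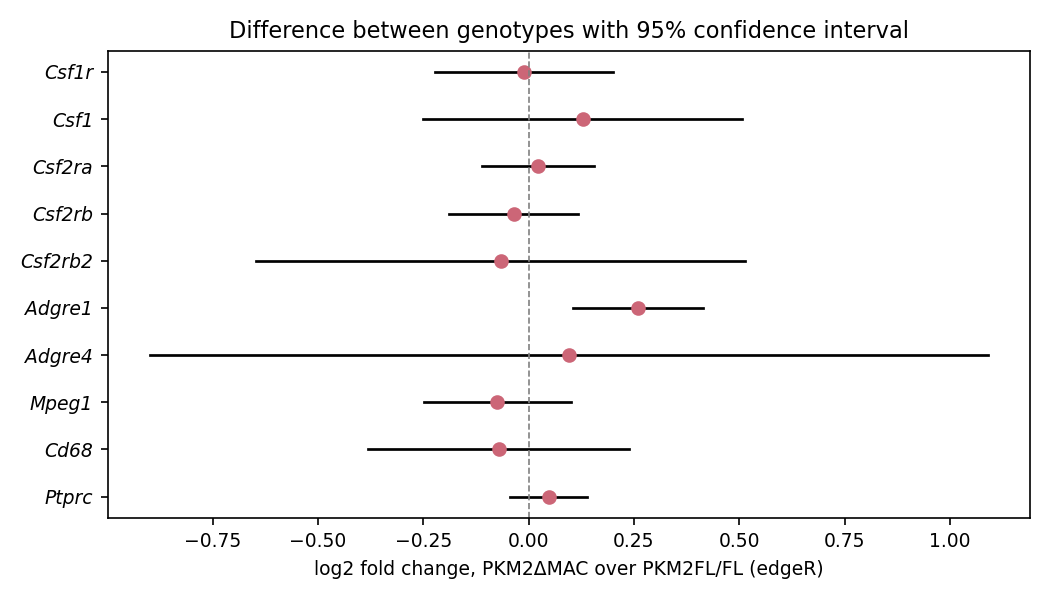
log2 fold change of PKM2ΔMAC over PKM2FL/FL from edgeR (points) with 95% confidence intervals (lines). The interval of Adgre1, from 0.10 to 0.41, lies above 0 and the other 9 intervals include 0, with that of Adgre4 widest at -0.90 to 1.09.

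Csf1r, the M-CSF receptor, was measured at 3159.6, 3435 and 3258 CPM in the PKM2FL/FL libraries and at 3097, 3755 and 2925 CPM in the PKM2ΔMAC libraries, given here and below in the order of replicates 1, 2 and 3. The PKM2ΔMAC libraries spread to both sides of the controls, with replicate 2 above and replicates 1 and 3 below them. The means were 3284 ± 139 and 3259 ± 438 CPM (SD, n = 3 each), and the log2 fold change was -0.011 (SE 0.092, 95% interval -0.22 to 0.20, adjusted p = 0.983, edgeR). A change to less than 0.858-fold or more than 1.15-fold lies outside this interval. Without PKM2ΔMAC replicate 2 it was -0.12, and without PKM2ΔMAC replicate 3 it was 0.060. In GRCm38, Csf1r spans 61100598 to 61132149 of chromosome 18 (plus strand), and 873 bases of its exons overlap those of Hmgxb3 on the other strand. Whether strand was used in counting is not given in the sources used here, and Hmgxb3 itself averaged 39.02 CPM in PKM2FL/FL.

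Csf1, which encodes the ligand, was at 325, 340.4 and 326 CPM in PKM2FL/FL and at 315, 454 and 315 CPM in PKM2ΔMAC. Only PKM2ΔMAC replicate 2 stood above all controls, while replicates 1 and 3 stood just below them. Its log2 fold change was 0.13 (SE 0.15, 95% interval -0.25 to 0.51, adjusted p = 0.846, edgeR) and turned to -0.068 without PKM2ΔMAC replicate 2. RNA of the ligand was thus present in the cultures of both genotypes, besides the M-CSF protein in the medium. Summed stromal markers of PKM2ΔMAC replicate 2, at 5004 CPM, were the lowest of the 3 PKM2ΔMAC libraries, while Pdgfrb of the same list was highest there. The part of stromal cells in the level of Csf1 was not tested. Csf1 lies on the minus strand of chromosome 3 from 107741048 to 107760469.

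Csf2ra, the alpha chain of the GM-CSF receptor, was at 328, 285 and 302 CPM in PKM2FL/FL and at 312, 296 and 321 CPM in PKM2ΔMAC. Every PKM2ΔMAC library fell within the range of the controls. Its log2 fold change was 0.022 (SE 0.058, 95% interval -0.11 to 0.15, adjusted p = 0.940, edgeR), with means of 305 ± 21.5 and 309.7 ± 12.8 CPM (SD, n = 3 each). The value turned to -0.023 without PKM2FL/FL replicate 2 and to -0.0062 without PKM2ΔMAC replicate 3. On TPM values it was 0.096 in each of 3 limma-trend fits, and not called. The median gene stood between 0.046 and 0.067 in those fits. Csf2ra is encoded on the minus strand of chromosome 19 from 61223957 to 61228429.

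Csf2rb, the shared beta chain, was at 276, 242 and 283 CPM in PKM2FL/FL and at 261, 246 and 275 CPM in PKM2ΔMAC. Here too the PKM2ΔMAC libraries lay inside the range of the controls (log2 fold change -0.036, SE 0.067, 95% interval -0.19 to 0.12, adjusted p = 0.912, edgeR), and the value was 0.0049 without PKM2ΔMAC replicate 2. Csf2rb2, the IL-3 beta chain, was at 266, 209 and 248 CPM in PKM2FL/FL and at 249, 162 and 279 CPM in PKM2ΔMAC. Its PKM2ΔMAC libraries extended past the controls on either side, with replicate 2 the lowest of all 6. A log2 fold change of -0.067 was found for Csf2rb2 (SE 0.23, 95% interval -0.65 to 0.51, adjusted p = 0.956, edgeR), and one of 0.13 without PKM2ΔMAC replicate 2. For this gene a fall to 0.638-fold or a rise to 1.43-fold would still lie inside the interval.

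The beta chain genes lie beside each other on chromosome 15 of GRCm38, Csf2rb on the plus strand from 78325752 to 78353847 and Csf2rb2 on the minus strand from 78282507 to 78305721, and their sequences are close enough that reads could be assigned to either. In GENCODE M21 their longest coding sequences measure 2688 and 2634 bases, and 2503 of 2694 aligned columns (92.9%) are identical. Of all 50-base windows of the Csf2rb coding sequence, 26.0% occur without a mismatch in that of Csf2rb2, as do 286 of 2589 windows of 100 bases and 6.50% of 150-base windows. The longest identical run measures 242 bases in exon 14, at chr15:78348577-78348818 in Csf2rb and chr15:78284630-78284871 in Csf2rb2, and is shown once because no read inside it can tell the genes apart. The 60-base window with the most differences within an exon is in exon 4 of both genes, at chr15:78338893-78338952 and chr15:78294379-78294438, where 13 bases differ (capitals). The sequences are given 5′ to 3′ on the coding strand.
Csf2rb and Csf2rb2, exon 14: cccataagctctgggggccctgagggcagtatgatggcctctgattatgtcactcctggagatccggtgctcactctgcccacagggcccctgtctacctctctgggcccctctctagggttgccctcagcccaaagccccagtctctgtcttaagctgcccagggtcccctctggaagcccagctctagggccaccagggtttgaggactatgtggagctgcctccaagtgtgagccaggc
Csf2rb, exon 4: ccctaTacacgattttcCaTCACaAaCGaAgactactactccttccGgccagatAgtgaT
Csf2rb2, exon 4: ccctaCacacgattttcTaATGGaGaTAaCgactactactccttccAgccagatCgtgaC

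The values of either beta chain gene alone are therefore uncertain, since read length and the treatment of reads with several matches are not given in the sources used here. When the counts of both genes were summed before the fit, the log2 fold change was -0.050 (SE 0.13, 95% interval -0.36 to 0.26, adjusted p = 0.938, edgeR). The share of Csf2rb2 in the summed counts was 49.0%, 46.4% and 46.7% in the PKM2FL/FL libraries and 48.9%, 39.7% and 50.4% in the PKM2ΔMAC libraries. PKM2ΔMAC replicate 2 had the lowest share, and the other 5 libraries lay within 46.4% to 50.4%. Although Csf2rb2 had fewer counts than Csf2rb in 5 of 6 libraries, its TPM was higher in all 6.

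**Figure D3:**
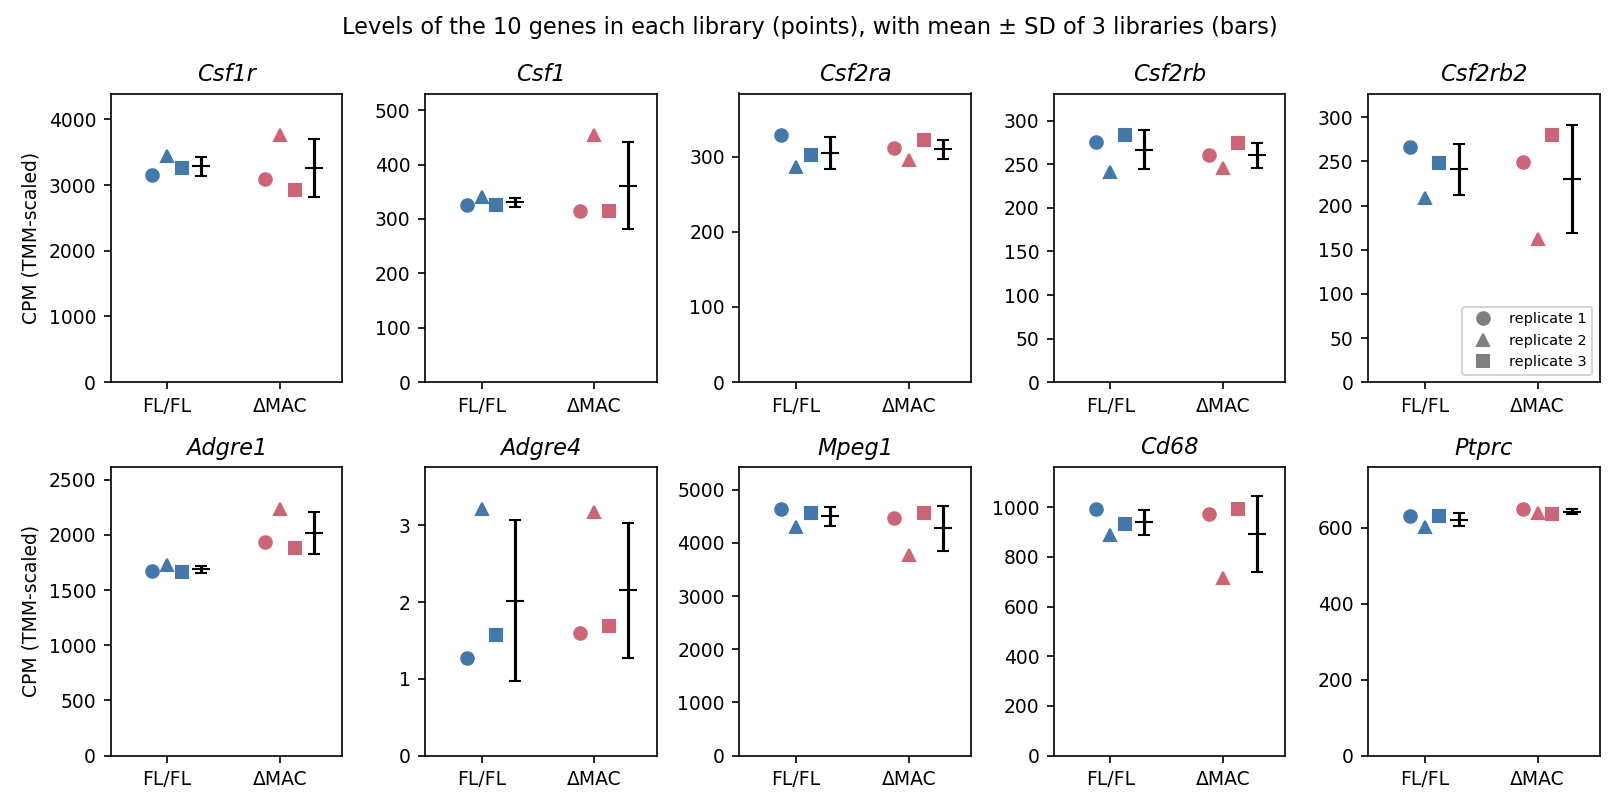
CPM of each gene in each library (points, y axes from 0, symbols by replicate number) with the mean and SD of 3 libraries (bars). The Adgre1 points of PKM2ΔMAC, from 1884 to 2236 CPM, lie above those of PKM2FL/FL, from 1666 to 1726 CPM, and replicate 2 is the outermost PKM2ΔMAC point for Csf1r, Csf1, Csf2rb2, Mpeg1 and Cd68.

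Adgre1, the gene of F4/80, was at 1672, 1726 and 1666 CPM in PKM2FL/FL and at 1939, 2236 and 1884 CPM in PKM2ΔMAC. All 3 PKM2ΔMAC libraries stood above all 3 controls, and the difference in means was larger than the SD of either genotype. The two-sided exact permutation p was 0.10, which is the lower limit for 3 against 3. The means were 1688 ± 32.7 and 2019.8 ± 189 CPM (SD, n = 3 each). In edgeR the log2 fold change was 0.26 (SE 0.068, 95% interval 0.10 to 0.41), a 1.20-fold higher level with an interval of 1.08 to 1.33, at an unadjusted p of 0.00443 and an adjusted p of 0.236, so that it did not pass over all genes.

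Summed neutrophil markers were lowest among PKM2ΔMAC libraries in replicate 2 (90.2 CPM), where Adgre1 was highest, and the part of neutrophils in its level was not tested.

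The call of Adgre1 depended on the fit while its direction did not. The log2 fold change was positive under 16 of 16 alternatives, between 0.18 and 0.33, and the adjusted p passed under 2 of them. It passed with DESeq2 (adjusted p = 0.0356) and without PKM2ΔMAC replicate 2 (log2 fold change 0.18, edgeR adjusted p = 0.0414, where 1.77% of 16913 genes were called), the library in which Adgre1 was highest. Under the alternatives the adjusted p ranged from 0.0356 to 0.689. The highest log2 fold change, 0.33, was on log2(TPM + 0.1), where the median gene itself stood at 0.067. Adgre1 lies on the plus strand of chromosome 17 from 57358691 to 57483527, and no other annotated gene overlaps it.

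**Figure D4:**
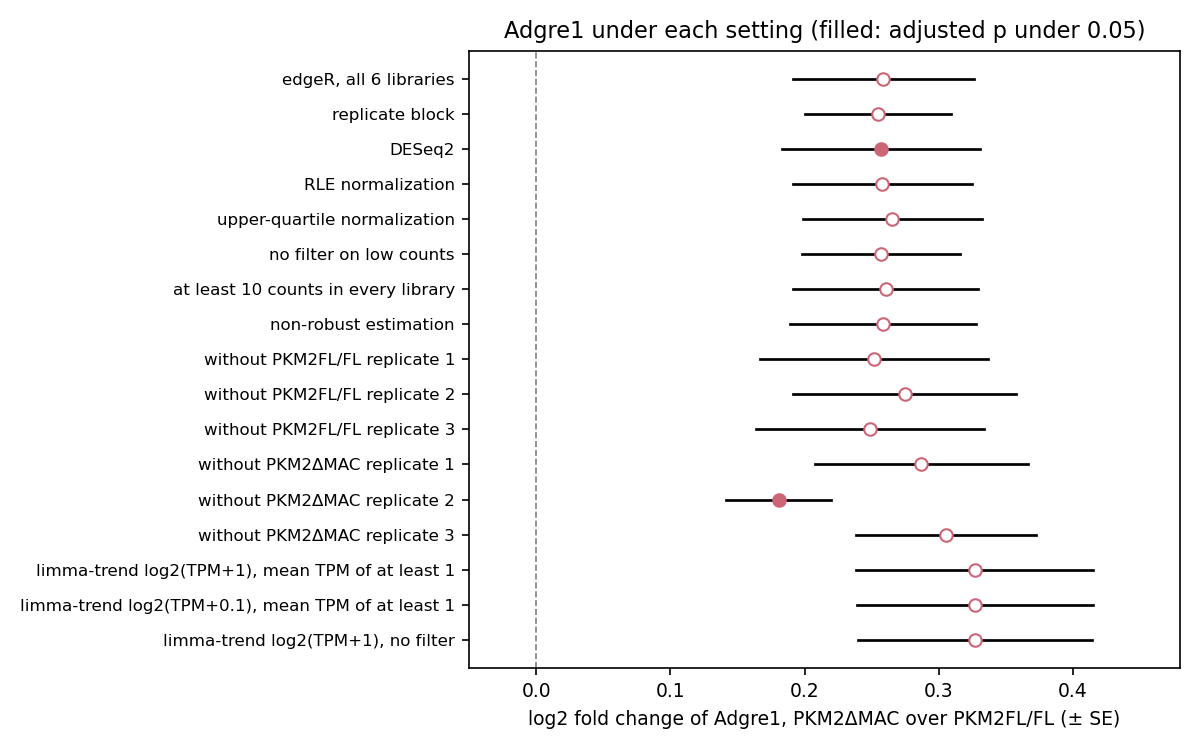
log2 fold change of Adgre1 (points) with SE (lines) for edgeR on all 6 libraries and for each alternative, filled where the adjusted p is under 0.05. All points lie right of 0, from 0.18 without PKM2ΔMAC replicate 2 to 0.33 on TPM values.

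Adgre4, the related EGF-TM7 receptor on the same chromosome from 55749984 to 55853662, was at 1.27, 3.21 and 1.57 CPM in PKM2FL/FL and at 1.60, 3.17 and 1.69 CPM in PKM2ΔMAC. A single library of each genotype, replicate 2, stood above the other 2. The log2 fold change of 0.095 (SE 0.42, 95% interval -0.90 to 1.09, adjusted p = 0.968, edgeR) leaves room for a change in either direction, from 0.536-fold to 2.13-fold, and was -0.29 without PKM2ΔMAC replicate 2.

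Mpeg1, encoding perforin-2, was at 4639, 4302 and 4556 CPM in PKM2FL/FL and at 4471, 3782 and 4568 CPM in PKM2ΔMAC. Replicates 1 and 3 of PKM2ΔMAC lay within the range of the controls and replicate 2 below it. Its log2 fold change was -0.074 (SE 0.077, 95% interval -0.25 to 0.10, adjusted p = 0.817, edgeR) and 0.0079 without PKM2ΔMAC replicate 2. Mpeg1 lies on the plus strand of chromosome 19 from 12460779 to 12465283.

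Cd68 followed the same arrangement, with 993, 889.9 and 933 CPM in PKM2FL/FL and 972, 716 and 991 CPM in PKM2ΔMAC. Again replicates 1 and 3 lay within the controls and replicate 2 below them. For Cd68 the log2 fold change was -0.071 (SE 0.13, 95% interval -0.38 to 0.24, adjusted p = 0.906, edgeR) and 0.066 without PKM2ΔMAC replicate 2. Cd68 lies on the minus strand of chromosome 11 from 69664213 to 69666153.

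Ptprc, the CD45 gene, was at 629.5, 601 and 630.3 CPM in PKM2FL/FL and at 649, 639 and 636 CPM in PKM2ΔMAC. The genotypes did not overlap, by a narrow margin (two-sided exact permutation p = 0.10, again the lower limit). For Ptprc the log2 fold change was 0.048 (SE 0.040, 95% interval -0.044 to 0.14, adjusted p = 0.767, edgeR), so that a rise of more than 1.10-fold lies outside the interval. It is encoded on the minus strand of chromosome 1 from 138062861 to 138175708, and its isoforms were counted together. Neutrophils also carry CD45, and their markers were higher in each PKM2ΔMAC library than in each control by the sums given above. Within PKM2ΔMAC, Ptprc was lowest in replicate 3 (636 CPM), where the summed neutrophil markers were highest (170.2 CPM). The part of neutrophils in the level of Ptprc was not tested.

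Except for Adgre1 and Ptprc, the log2 fold change between genotypes was smaller in size than the pooled within-genotype SD. The pooled within-genotype SD of log2(CPM + 0.1) was 0.030 for Ptprc, 0.083 for Csf2ra, 0.096 for Adgre1, 0.22 for Csf1 and 0.32 for Csf2rb2, against a median of 0.056 over the 2201 genes with at least 100 CPM. Among those genes, the percentile of this spread was 97.5 for Csf2rb2, 94.2 for Csf1, 93.0 for Cd68 and 86.6 for Csf1r, and 16.2 for Ptprc. Adgre4 had a pooled SD of 0.60, with 167 and 174 counts in replicate 2 of the genotypes and 68 to 85 counts in the other 4 libraries.

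Within PKM2ΔMAC, replicate 2 departed from the other libraries, with some of the genes higher and others lower. Relative to PKM2ΔMAC replicates 1 and 3, it was higher by 0.53 on the log2 scale for Csf1, 0.32 for Csf1r and 0.23 for Adgre1. It was lower, at -0.70 for Csf2rb2, -0.46 for Cd68 and -0.26 for Mpeg1. Csf2rb (-0.12), Csf2ra (-0.097) and Ptprc (-0.0087) lay closer to the other libraries, and the median absolute value over genes with at least 100 CPM was 0.090. The M-CSF receptor, its ligand and F4/80 were thus raised in the culture in which the IL-3 beta chain, CD68 and perforin-2 genes were lowest.

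**Figure D5:**
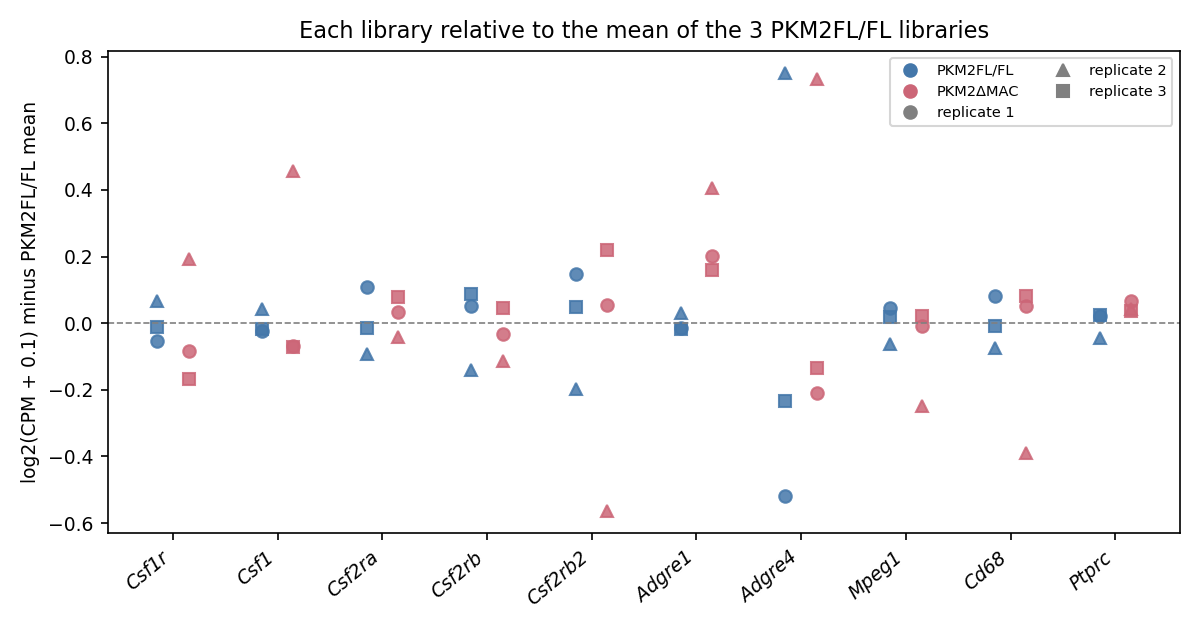
log2(CPM + 0.1) of each library minus the mean of the 3 PKM2FL/FL libraries (dashed line at 0), with genotype by colour and replicate number by symbol. PKM2ΔMAC replicate 2 (red triangles) is the highest PKM2ΔMAC library for Csf1r, Csf1, Adgre1 and Adgre4 and the lowest for Csf2ra, Csf2rb, Csf2rb2, Mpeg1 and Cd68.

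Likeness to other genes was measured as the root mean square difference of centred log2 values over the 6 libraries, among 63 genes of the members and gene lists with at least 10 CPM. Csf1r was most alike Cd14, an LPS co-receptor (0.035), and Plcg2, a phospholipase of receptor signalling (0.041). Cd68 was most alike Lgals3 (0.067), the galectin-3 gene, and Mertk (0.069), a receptor for apoptotic cells. Mpeg1 was most alike the lysosomal membrane genes Lamp1 and Lamp2 (0.044 for each), and Csf2rb2 was most alike Cd68 (0.11). Adgre1 was most alike Pdgfrb (0.065), a stromal marker that was higher in PKM2ΔMAC, and Ptpn6 (0.074), the SHP-1 phosphatase gene. The part of stromal cells in the level of Adgre1 was not tested. These values describe 6 libraries only.

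Since Csf2rb2, Cd68 and Mpeg1 were each lowest of the 6 libraries in PKM2ΔMAC replicate 2, the 250 bases before their annotated starts (RefSeq, GRCm38.p6) are shown, with the purine-rich core GAGGAA of PU.1 sites, or its reverse TTCCTC, in capitals. PU.1 is a myeloid transcription factor. Of the 10 genes, 7 had an entry (8 windows), and 4 of these windows, of 4 genes, held at least 1 match on either strand, where 23.3% of the 32851 windows of all genes did. A match is a description of letters and not of a bound site. Cd68 and Csf2rb2 held 1 match each and Mpeg1 held 0, which says only that these letters are not in its window. The windows, read 5′ to 3′, are at chr11:69666171-69666420 (Cd68, minus strand), chr15:78305722-78305971 (Csf2rb2, minus strand) and chr19:12460520-12460769 (Mpeg1, plus strand).
Cd68: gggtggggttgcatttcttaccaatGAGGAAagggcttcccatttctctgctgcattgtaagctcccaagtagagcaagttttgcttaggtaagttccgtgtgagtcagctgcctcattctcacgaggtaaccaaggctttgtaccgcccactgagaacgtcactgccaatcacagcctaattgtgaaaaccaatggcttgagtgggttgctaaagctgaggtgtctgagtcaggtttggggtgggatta
Csf2rb2: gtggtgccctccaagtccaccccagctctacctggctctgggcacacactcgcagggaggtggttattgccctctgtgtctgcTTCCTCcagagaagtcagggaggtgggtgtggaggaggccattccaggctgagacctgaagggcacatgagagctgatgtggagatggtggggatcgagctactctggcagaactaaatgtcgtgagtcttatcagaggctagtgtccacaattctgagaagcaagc
Mpeg1: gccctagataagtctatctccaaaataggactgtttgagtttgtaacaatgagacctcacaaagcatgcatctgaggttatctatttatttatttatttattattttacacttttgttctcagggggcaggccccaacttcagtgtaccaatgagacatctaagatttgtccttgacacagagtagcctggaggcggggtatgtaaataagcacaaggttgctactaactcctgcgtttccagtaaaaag

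Partners of the colony-stimulating factor receptors were read from the same fit. Of 26 listed genes, 22 were found and 21 tested (the other 4 were not analysed here), and 0 were called by edgeR in either direction, with 5 of 21 at an unadjusted p under 0.05 (9.83% of all genes) and 1 called by DESeq2 (Cbl; 1.54% of all genes). On TPM values, limma-trend called 0 of the 19 it tested (0.281% of all genes). The median log2 fold change of the 21 was -0.035. Cbl, a ubiquitin ligase that promotes the breakdown of the activated M-CSF receptor, was at 347, 345 and 352 CPM in PKM2FL/FL and at 297, 283 and 239 CPM in PKM2ΔMAC, without overlap (log2 fold change -0.35, SE 0.075, adjusted p = 0.167, edgeR; it was named after its values were seen). Tyrobp, the DAP12 adaptor, averaged 470.1 CPM in controls and 472 CPM in the knockout, and Inpp5d, the SHIP1 phosphatase, 392 and 382 CPM. For Adam17, the protease that sheds the M-CSF receptor, it was 0.10 (SE 0.038, adjusted p = 0.413, edgeR), and for Grb2, an adaptor of receptor kinases, -0.049 (SE 0.045, adjusted p = 0.790, edgeR) and -0.011 without PKM2ΔMAC replicate 2.

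Of 9 substrates and regulators of CD45, 8 were tested and 0 were called by edgeR, DESeq2 or limma-trend, with 0 at an unadjusted p under 0.05. Over all genes these shares were 0.412%, 1.54%, 0.281% and 9.83%. Their log2 fold changes had a median of 0.015. Lyn, a Src-family kinase on which CD45 acts, averaged 249 CPM in controls and 262 CPM in the knockout.

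A list of 10 genes held relatives of the EGF-TM7, CD68 and Mpeg1 proteins and Cd55, which is not a relative but encodes a ligand of the F4/80 relative CD97 and limits complement. Of the 7 tested, 1 rose, Cd55, and 0 fell, where 0.412% of all genes were called. It was at 3.76, 4.08 and 3.05 CPM in PKM2FL/FL and at 7.50, 8.56 and 8.30 CPM in PKM2ΔMAC, with no overlap (log2 fold change 1.16, SE 0.14, adjusted p = 0.00953, edgeR). It kept its call under 12 of 16 alternatives and lost it in 2 of 3 fits on TPM and in edgeR when PKM2FL/FL replicate 1 (adjusted p = 0.0742) or 3 (0.0686) was left out. The log2 fold change of Adgre5, the CD97 gene, was -0.31 (SE 0.19, adjusted p = 0.678, edgeR), and those of the lysosomal genes Lamp1 and Lamp2 were -0.073 and -0.022. Without PKM2ΔMAC replicate 2 they were -0.14, -0.019 and 0.034.

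Other macrophage identity genes were read in the same way. Of 16 tested, 2 rose (Itgam and Msr1), 1 fell (Lyz2) and 13 were not called, the median of their log2 fold changes being -0.036, and 0.285% of all tested genes were called as higher and 0.127% as lower. Itgam, which encodes CD11b and is paired with F4/80 in flow cytometry of macrophages, was at 197, 193 and 198 CPM in PKM2FL/FL and at 253, 272 and 266 CPM in PKM2ΔMAC (log2 fold change 0.43, SE 0.040, adjusted p = 0.00272, edgeR) and was called under 16 of 16 alternatives. Neutrophils also carry CD11b. Their summed markers were lowest among PKM2ΔMAC libraries in replicate 2 (90.2 CPM), where Itgam was highest (272 CPM). The part of neutrophils in the level of Itgam was not tested. Msr1, a scavenger receptor, was higher by 0.39 on the log2 scale (SE 0.059, adjusted p = 0.0371, edgeR) and was called under 7 of 16 alternatives. It lost the call with non-robust estimation (edgeR adjusted p = 0.0638), in all 3 fits on TPM, when a PKM2FL/FL library was left out (edgeR adjusted p = 0.109, 0.212 and 0.239 for replicates 1, 2 and 3), without PKM2ΔMAC replicate 3 (edgeR adjusted p = 0.0632) and with a replicate block (edgeR adjusted p = 0.0552). At an unadjusted p under 0.05 there were 6 of the 16, against 9.83% of all genes. Besides the called genes these were Timd4, a receptor for phosphatidylserine (log2 fold change 1.52, SE 0.38, adjusted p = 0.221, edgeR, on 12 to 55 counts per library, without overlap), Cd163, the haemoglobin scavenger receptor (-0.64, SE 0.25, adjusted p = 0.474, edgeR), and Cd33, a sialic acid-binding receptor (-0.13, SE 0.055, adjusted p = 0.484, edgeR). Mrc1, Fcgr1, Mertk and Cd14 were not called either, with log2 fold changes of -0.12, 0.040, -0.16 and -0.048. Without PKM2ΔMAC replicate 2 these were -0.014, 0.00072, 0.0022 and -0.19, and again 0 of the 4 were called by edgeR.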

How the data were processed

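RNA-seq libraries of LPS/IFN-γ-primed BMDMs were used, 3 from PKM2ΔMAC and 3 from PKM2FL/FL mice. For 23935 gene symbols, raw counts and TPM values were deposited by the authors. The submitters' processing notes name FastQC 0.12.1, Trim Galore 0.6.10, HISAT2 2.2.1, SAMtools 1.19.2, Subread 2.0.6 and mm10. The annotation, strand setting and read length are not given in the sources used here. Columns were matched to libraries by genotype and mouse number, and 0 were left unmatched.

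Counts were filtered by filterByExpr, scaled by TMM and fitted with edgeR 4.0.16 (R 4.3.3, limma 3.58.1) on genotype, with the quasi-likelihood test and Benjamini-Hochberg adjustment over 16516 genes, at a threshold of 0.05. Genotype was the only term, and the study's methods give general tests of group means and none specific to RNA-seq counts. SE was taken as |log2 fold change| over the root of F. Exact permutation tests used log2(CPM + 0.1). P-values measure the spread between these 6 libraries. On TPM values (limma-trend) the median gene was 0.063 higher in PKM2ΔMAC on the log2 scale. These values carry no TMM correction. Lyz2 averaged 47420 TPM in PKM2FL/FL and 79.4 TPM in PKM2ΔMAC, and its part in this shift was not tested. Functions were tested on simulated counts. Positions came from GENCODE M21 on GRCm38, the assembly also called mm10, and the coding sequences were aligned with Biopython 1.88.

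All 10 members were named, and listed genes were named where called. Up to 4 more per list were picked by mean CPM, but not in strict order of it. Lgals1, highest of the CD45 list, was left out and Lyn was given. The exceptions, named after their values were seen, are Cbl, Csf3r, Stat5a and Stat5b. So are the genes not called among the other macrophage genes and the markers. Adam17 and Adgre5 are among the 4 highest of their lists by mean CPM, and were also named after their values were seen. The members and lists were chosen with earlier results of these data known. Alternatives were DESeq2 1.42.0, other normalizations and filters, non-robust estimation, a replicate block, each library left out, TPM with a pseudocount of 1 or 0.1, and summed beta chain counts.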

Additional observations from a re-analysis of the deposited data

How the results depend on the processing

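Of the 10 genes, 0 were called in the reported fit, and under 16 alternatives 0 were called in 14 and 1, Adgre1, in the other 2 (DESeq2, and without PKM2ΔMAC replicate 2, so between 0 and 1 when a library was left out). The adjusted p of Adgre1 was 0.0356 with DESeq2. Over all genes, 68 were called, 289 with DESeq2, 120 with no filter on low counts, 41 and 32 on log2(TPM + 1) and log2(TPM + 0.1) with a mean TPM of at least 1, 36 on log2(TPM + 1) with no filter, and between 22 and 299 when a library was left out, the highest without PKM2ΔMAC replicate 2 and the lowest without PKM2FL/FL replicate 3 (26 and 27 without replicates 1 and 2). The sign of log2 fold changes that were not called turned on TPM values for Csf1r (0.054 in each of 3 fits) and Csf2rb (0.039). TPM values carry no TMM correction, and in these fits the median gene itself stood at 0.063, 0.067 and 0.046. Csf1r and Csf2rb thus lay near the median gene. When a library was left out, log2 fold changes ranged from -0.12 to 0.060 for Csf1r, -0.068 to 0.22 for Csf1, -0.023 to 0.077 for Csf2ra, -0.10 to 0.0082 for Csf2rb, -0.23 to 0.13 for Csf2rb2, -0.29 to 0.60 for Adgre4, -0.13 to 0.0079 for Mpeg1 and -0.15 to 0.066 for Cd68, against 0.18 to 0.31 for Adgre1 and 0.026 to 0.059 for Ptprc. The cause was not tested. Same-numbered libraries correlated in their deviations by 0.16, 0.25 and 0.027 for numbers 1 to 3, so the numbers were not taken to pair mice, though 5 of 6 libraries correlated best with their own number. With a replicate block, 82 genes and 0 of the 10 were called, and Adgre1 was at 0.25 (edgeR adjusted p = 0.140). The block lowered the SE of Csf2rb2 from 0.23 to 0.11, of Adgre4 from 0.42 to 0.19 and of Cd68 from 0.13 to 0.079. For Ptprc the SE was 0.041 with the block and 0.040 without it. Intervals given above are from the fit without the block. Adgre4 rested on 68 to 174 counts per library and the other 9 genes on at least 8901.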

Other observations

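Replicate 2 was an extreme library for these genes in both genotypes, a pattern seen after the values were examined. Csf1r, Csf1, Adgre1 and Adgre4 were highest in replicate 2 of PKM2FL/FL and of PKM2ΔMAC, and Csf2ra, Csf2rb, Csf2rb2, Mpeg1 and Cd68 were lowest in both. The same extreme in both genotypes was thus shared by 9 of the 10 genes (90%), where 47.7% of the 2201 genes with at least 100 CPM and 32.6% of all tested genes shared it. In PKM2FL/FL the size was smaller for 6 of these 9, with replicate 2 at 0.098 above replicates 1 and 3 for Csf1r, 0.064 for Csf1 and 0.048 for Adgre1 on the log2 scale, and at -0.30 for Csf2rb2, -0.11 for Cd68 and -0.096 for Mpeg1. For Adgre4 it was 1.13 in PKM2FL/FL and 0.90 in PKM2ΔMAC. The labels attach the number to the mouse and do not say whether mice of the same number shared a litter or culture day, and its part in these values was not tested.

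Csf3r, the G-CSF receptor gene, was at 102, 107 and 108 CPM in PKM2FL/FL and at 101, 78.03 and 96.6 CPM in PKM2ΔMAC. The genotypes did not overlap, as for 17.2% of all tested genes, and the log2 fold change of -0.20 (SE 0.093, adjusted p = 0.536, edgeR) did not pass. It was -0.098 without PKM2ΔMAC replicate 2, the lowest library. Stat5a and Stat5b, transcription factors downstream of GM-CSF and IL-3 receptors, had log2 fold changes of -0.20 (SE 0.081, adjusted p = 0.481, edgeR) and -0.10 (SE 0.037, adjusted p = 0.425, edgeR). The choice of these 3 genes was made with their values known.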
